A study of Mus musculus with 24 samples.

Results

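The data described here are the 12 lung arrays, of 24 arrays in all, from a study of mammary tumour bearing mice on a high-fat diet, and the comparison is the diet by injection interaction in the lung. The arrays were chosen by the word lung in their titles. They formed 4 groups of 3 arrays from female BALB/c mice: 4T1-injected on the high-fat diet, 4T1-injected on the control diet, sham-injected on the high-fat diet and sham-injected on the control diet. The mice were labelled 22 weeks old. The diets had been given for 16 weeks when the mice were injected in the mammary fat pad with 4T1 cells or received a sham injection, and the diets continued for the 14 days until tissue collection. The 4T1 line derives from a BALB/c mammary carcinoma and is known for seeding the lung. The remaining 12 arrays were liver from the same 4 groups. The deposited title describes the mice as obesity-resistant. The labels name no slide, and do not say that the 3 arrays of a group came from 3 mice, so the p-values measure the spread between these arrays, which may be technical.

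The interaction is the high-fat minus control-diet difference in 4T1-injected mice minus the same difference in sham-injected mice, on the log2 scale of the deposited normalized signals. A negative interaction means that the diet difference was lower in the 4T1-injected lungs than in the sham-injected lungs. It asks whether the diet was followed by a different lung transcriptome when a tumour was present. The test called 26 genes, 0.204% of those measured. Of these, 2 were among 15 measured clock genes, 3 among 11 B-lymphocyte genes and 4 among 16 mature neutrophil genes. These counts changed with the processing and with single arrays, as given below. The circadian clock is a feedback loop in which ARNTL (BMAL1), paired with CLOCK or NPAS2, drives genes with E-box elements, among them the PER and CRY repressors and the REV-ERB receptors, and the REV-ERB receptors in turn repress Arntl through response elements called ROREs. B lymphocytes of the lung circulate or lie in lymphoid aggregates around the bronchi. Neutrophils carry large amounts of the calcium-binding proteins S100A8 and S100A9, and 4T1 tumours are known for a strong rise of granulocytes in blood and lung.

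The lung arrays carried the markers of lung tissue, and the injection separated them. Sftpc, a surfactant protein of alveolar type II cells, read 14.8 to 15.4 on the lung arrays, against 7.26 to 7.55 on the liver arrays. Between 42.97% and 44.8% of probes were above background on the 4T1 arrays and between 51.0% and 52.4% on the sham arrays, on an array of 45281 probes. The first principal component held 81.1% of the variance and separated 4T1 from sham, and 4T1 high-fat array 3 stood apart on the third component, which held 3.51%. Myh6, the heart muscle myosin, read 11.6 to 13.1 in lung against 7.31 to 7.71 in liver. The list of 24 cardiac genes averaged 10.18 to 10.50 on the 4T1 high-fat arrays, 10.35 to 11.10 on the 4T1 control-diet arrays, 10.85 to 11.02 on the sham high-fat arrays and 10.61 to 11.28 on the sham control-diet arrays. The list of 20 liver-secreted proteins averaged 8.80 to 9.66, 9.26 to 10.05, 9.66 to 10.22 and 10.22 to 10.50 on the arrays of those 4 groups in that order. None of the members of either list was called for the interaction, and the part of heart or liver RNA in the results was not tested beyond the covariate fits given in the closing section. In whole lung, fewer cells of a type and less RNA per cell cannot be told apart.

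Of 24399 probes above background on at least 3 of the 12 lung arrays, 46 were called for the interaction at an adjusted p under 0.05 in limma, which is 0.189% of those tested. The interaction was higher in 8 probes, 0.0328%, and lower in 38, 0.156%, and 3100 probes had an unadjusted p under 0.05. With each gene read by its brightest probe, 26 of 12746 genes were called, 0.204%, of which 25 were lower (0.196%) and 1, Dclk3, was higher (0.00785%). In sham-injected lungs 559 probes were called for diet, 2.29%, of which 314 rose on the high-fat diet (1.29%) and 245 fell (1%). In 4T1-injected lungs no probe was called for diet by limma, 0%, although 2840 had an unadjusted p under 0.05, and the alternative settings called 0 to 8 probes there. The injection itself was called in 53.9% of probes on the high-fat diet and in 52.7% on the control diet. When the background was corrected with neqc, 7 of the 26 genes were called (Arntl, Spon2, S100a9, Npas2, Pigr, Clmp and Rab9) and the other 19 were not, although their interactions were 1.02 to 1.82 times those of the deposited values. With the mean of the cardiac genes as a covariate 10 of the 26 were called, and the interactions of the other 16 were 0.92 to 1.05 times as large as without it.

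The 25 genes with a lower interaction differed in where their diet difference lay. The high-fat and control-diet arrays did not overlap in sham-injected lungs for any of the 25, where 25.6% of all genes have diet groups without overlap. In 4T1-injected lungs they did not overlap for 12 of the 25, where the share over all genes is 14.1%. The rule that selected these genes uses both differences, so these counts describe them and test nothing. Their median diet difference was -0.13 in 4T1-injected lungs (range -0.40 to 0.41) and 0.41 in sham-injected lungs (range 0.12 to 1.71), and their median interaction was -0.55 (range -1.30 to -0.42). All 25 diet differences were above 0 in sham-injected lungs, while in 4T1-injected lungs they lay on both sides of 0.

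**Figure D1:**
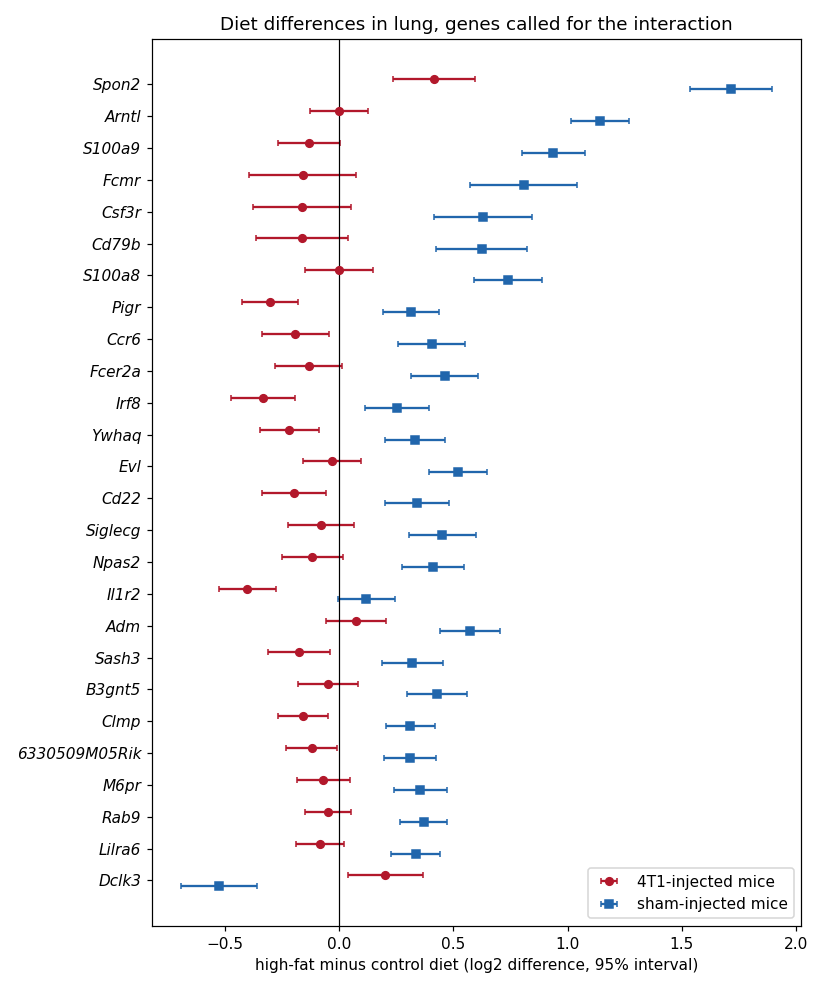
High-fat minus control-diet difference (log2) of the 26 genes called for the interaction, in 4T1-injected and in sham-injected lungs, with 95% intervals from the limma fit. In sham-injected lungs the points of the 25 genes with a lower interaction lie between 0.12 and 1.71, and in 4T1-injected lungs they lie between -0.40 and 0.41.

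Among clock genes, Arntl and Npas2 were called, both with a rise on the high-fat diet in sham-injected lungs. In 4T1-injected lungs the 2 diets overlapped for Arntl, and Npas2 was not well above background. Arntl has 2 annotated starts in RefSeq (GRCm38.p6), and the overlapping 300-base windows around them (250 bases before the start and 50 after) both hold the letters AAAGT directly followed by AGGTNA, a form of the RORE through which the REV-ERB receptors act. These letters were searched on both strands and occur in 20 of 32851 windows, 0.0609%. They spell the 2 Arntl matches shown here, with N at the base where those differ. The share is therefore of this narrow form and does not measure how common ROREs are. The E-box CACGTG occurs in 2349 windows, 7.15%, including 1 of the 2 of Per1, and in neither of Arntl. Capitals mark the motif in the following 30-base stretches, shown because the 2 genes stand on opposite arms of the clock loop.
Arntl, chr7:113207492-113207521, plus strand: attggtcggAAAGTAGGTTAgtggtgcgac
Arntl, chr7:113207528-113207557, plus strand: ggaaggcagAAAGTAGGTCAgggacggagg
Per1, chr11:69098771-69098800, plus strand: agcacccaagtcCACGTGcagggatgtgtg
The windows of Npas2, Dbp and Per3 held neither set of letters, and other forms of the 2 elements were not searched. A match describes the sequence and is not a measured binding site.

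Arntl, which encodes the core activator BMAL1, read 8.53, 8.43 and 8.40 in 4T1 high-fat lungs, against 8.40, 8.50 and 8.46 in 4T1 control-diet lungs. It read 9.29, 9.48 and 9.30 in sham high-fat lungs, against 8.22, 8.24 and 8.19 in sham control-diet lungs. The sham high-fat arrays stood alone above all other lungs, and the 2 diets overlapped in 4T1-injected lungs. The interaction was -1.14 ± 0.08 (SE), with an adjusted p of 4.85e-05 in limma. The diet difference was 1.14 in sham-injected lungs (adjusted p = 2.39e-07), and its 95% interval in 4T1-injected lungs ran from -0.13 to 0.13. The call remained without any 1 of the 12 arrays, with a highest adjusted p of 0.000406.

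Npas2, the paralog of Clock, read 7.91, 8.13 and 7.91 in sham high-fat lungs, against 7.54, 7.62 and 7.56 in sham control-diet lungs, a difference of 0.41 (adjusted p = 0.00423). In 4T1-injected lungs it was not well above background on any array, at 7.37, 7.45 and 7.51 on the high-fat diet against 7.55, 7.55 and 7.59 on the control diet. Those values are bounds and give no fold between the 4T1 diets. The interaction of -0.53 ± 0.09 (adjusted p = 0.0297) rests on these dim values, and the call was kept in 5 of the 12 fits that leave out 1 array, with a highest adjusted p of 0.0890 without sham control-diet array 3.

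The Per genes and several other clock genes, repressors and outputs among them, ran the other way in sham-injected lungs. Of 20 listed clock genes, 18 had a probe and 15 were above background on at least 3 arrays. For the interaction 2 of the 15 were called, both lower, against 0.204% of all genes called and 0.196% lower, and the list median was 0.15, against 0.01 over all genes. For diet in sham-injected lungs 12 of the 15 were called, against 2.68% of all genes: Arntl, Npas2 and Clock rose, where 1.51% of all genes did, and 9 fell, where 1.17% did, with a list median of -0.37. The genes that fell were Per2, Per1, Per3, Usp2, Tef, Dbp, Ciart, Nr1d2 and Cry2, by 1.23 down to 0.37 on the log2 scale. The measured Nr1d1 was not among them. For diet in 4T1-injected lungs none of the 15 was called, and the median was -0.12. The individual clock genes beyond Arntl and Npas2 are described after their values were seen. The labels do not give the hour of tissue collection, so its part in the clock gene differences was not tested.

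Per1, a repressor, read 10.63, 11.15 and 10.97 in 4T1 high-fat lungs, against 11.15, 10.97 and 10.61 in 4T1 control-diet lungs, and the 2 diets overlapped. It read 11.18, 11.24 and 11.12 in sham high-fat lungs, against 11.89, 12.06 and 12.16 in sham control-diet lungs, where they did not. Its interaction was 0.86 ± 0.19, opposite in sign to that of Arntl, and did not pass (adjusted p = 0.0838). Per2, a second repressor, had an interaction of 0.86 ± 0.19 (adjusted p = 0.0805), with means further apart in sham-injected lungs, at a diet difference of -1.23, than in 4T1-injected lungs, at -0.37. Per3 had an interaction of 0.54 (adjusted p = 0.0896) and Dbp, a transcription factor of the clock's output, one of 0.46 (adjusted p = 0.198). The replicates of Per1 and Per2 were wider apart in 4T1 high-fat lungs than those of Arntl, and Per2 read 11.70, 12.25 and 11.62 there.

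**Figure D2:**
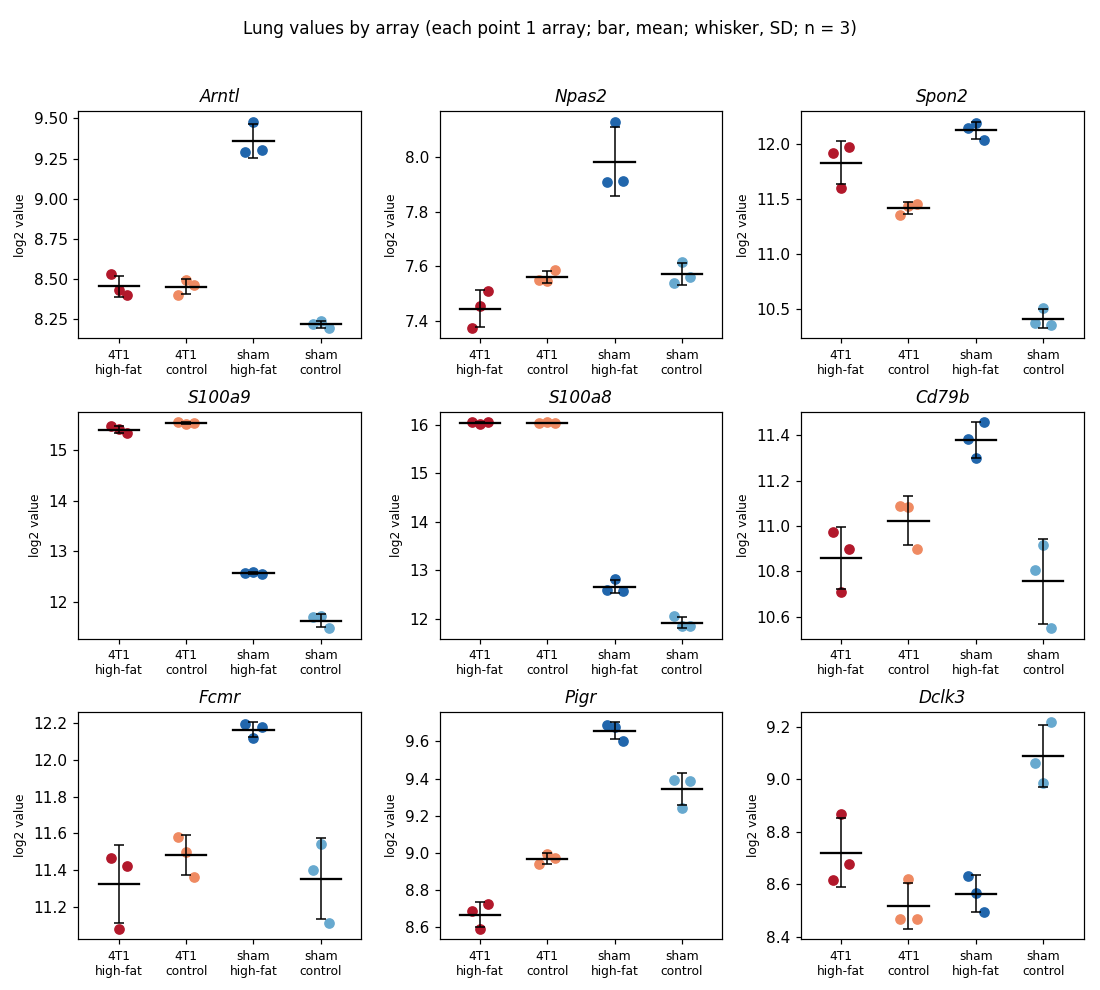
Deposited normalized log2 signal of 9 called genes on each lung array, by group, with each point 1 array, each bar the group mean and each whisker the SD (n = 3). Arntl is high in sham high-fat lungs alone, at 9.29 to 9.48, and S100a9 and S100a8 are higher in all 4T1 lungs than in any sham lung.

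Of 17 listed B cell genes, 14 had a probe and 11 were measured, while Cr2 and Pax5 were below background on every array. For the interaction 3 of the 11 were called, all lower (0.196% of all genes were): Fcmr, Cd79b and Cd22. The list median was -0.54 and 10 of the 11 members were below 0. The exception was Vpreb3, a chaperone of the pre-B cell receptor, at 0.26. In sham-injected lungs 5 of the 11 rose on the high-fat diet (Fcmr, Blk, Cd79b, Fcrla and Cd22) and Vpreb3 fell by 0.57, where 1.51% of all genes rose and 1.17% fell, with a list median of 0.32. In 4T1-injected lungs none was called and the median was -0.16.

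Fcmr, the Fc receptor for IgM, read 11.47, 11.08 and 11.42 in 4T1 high-fat lungs, against 11.58, 11.50 and 11.36 in 4T1 control-diet lungs. In sham-injected lungs it read 12.19, 12.12 and 12.17 on the high-fat diet, against 11.40, 11.54 and 11.11 on the control diet. The sham high-fat arrays were again the only ones set apart. The interaction was -0.97 ± 0.15 (adjusted p = 0.0224), from a diet difference of -0.16 in 4T1-injected lungs (95% interval -0.39 to 0.08) and 0.81 in sham-injected lungs (adjusted p = 0.00175).

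Cd79b, a signalling subunit of the B cell receptor, read 10.97, 10.71 and 10.90 in 4T1 high-fat lungs, against 11.09, 11.08 and 10.90 in 4T1 control-diet lungs. In sham-injected lungs it read 11.38, 11.30 and 11.46 on the high-fat diet, against 10.80, 10.91 and 10.55 on the control diet. Its interaction was -0.79 ± 0.13 (adjusted p = 0.0296), and a second Cd79b probe gave -0.96 ± 0.13 (adjusted p = 0.00858). That second probe was called in all 12 fits that leave out 1 array, and the brighter one in 6 of them. Cd22, an inhibitory receptor that binds sialic acid, had an interaction of -0.54 ± 0.09 (adjusted p = 0.0314), and its second probe one of -0.47 that did not pass (adjusted p = 0.0742).

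Other called genes are known from B cells without being on that list. Ccr6, a chemokine receptor of B cells and some T cells, had an interaction of -0.60 ± 0.10 (adjusted p = 0.0233), with arrays of 9.48, 9.21 and 9.39 in 4T1 high-fat lungs, 9.62, 9.58 and 9.46 in 4T1 control-diet lungs, 9.99, 9.98 and 9.99 in sham high-fat lungs, and 9.66, 9.58 and 9.51 in sham control-diet lungs. Fcer2a, the low-affinity IgE receptor CD23, had the same interaction of -0.60 ± 0.10 (adjusted p = 0.0233). A dimmer Ccr6 probe, above background on all 12 arrays with a mean of 7.90, gave -0.09, so the Ccr6 probes disagree. The other Fcer2a probes were above background on only 5 and 3 of the 12 arrays and bear little on its change. Siglecg, a sialic acid-binding inhibitory receptor related to Cd22, had -0.53 ± 0.10 (adjusted p = 0.0422). Irf8, a transcription factor of monocytes, dendritic cells and B cells, read 9.46, 9.46 and 9.43 in 4T1 high-fat lungs, against 9.83, 9.80 and 9.72 in 4T1 control-diet lungs. It read 10.19, 10.03 and 10.15 in sham high-fat lungs, against 9.99, 9.74 and 9.88 in sham control-diet lungs. Irf8 thus differed from Fcmr in where its difference lay: the diets did not overlap under either injection. Diet groups without overlap made up 14.1% of all genes in 4T1-injected lungs and 25.6% in sham-injected lungs. The Irf8 difference was -0.33 in 4T1-injected lungs (95% interval -0.47 to -0.19) and 0.26 in sham-injected lungs (adjusted p = 0.0590), and neither was called.

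The mean log2 level of the 11 B cell genes was 9.42 to 9.60 on the 4T1 high-fat arrays, 9.62 to 9.71 on the 4T1 control-diet arrays, 9.88 to 9.92 on the sham high-fat arrays and 9.46 to 9.69 on the sham control-diet arrays. Their summed signal ran from 9695 to 11510, from 11477 to 12449, from 14996 to 15539 and from 10104 to 12422 in those groups. The T cell, natural killer cell and MHC class II lists had medians smaller in size and no call for the interaction. The 16 measured T cell genes had a median of -0.15 with 1 above 0, and the 11 natural killer cell genes had a median of -0.15 with 1 above 0. The 12 genes of MHC class II presentation had a median of -0.08 with 2 above 0. Most members of these lists thus lay below 0, as in the B cell list. The 7 measured lymphoid tissue and thymus genes had a median of 0.03 with 4 above 0. Of these, 1 was called lower, Fcer2a, where 0.196% of all genes were. Whether the B cell list differed from the T cell list was not tested. The B cell calls were sensitive to single arrays: the count was 0 when array 3 of the sham control-diet lungs, array 1 or 3 of the sham high-fat lungs, or array 1 of the 4T1 control-diet lungs was left out, 0 with neqc and 0 with the cardiac covariate, and up to 4 members were called without another array.

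**Figure D3:**
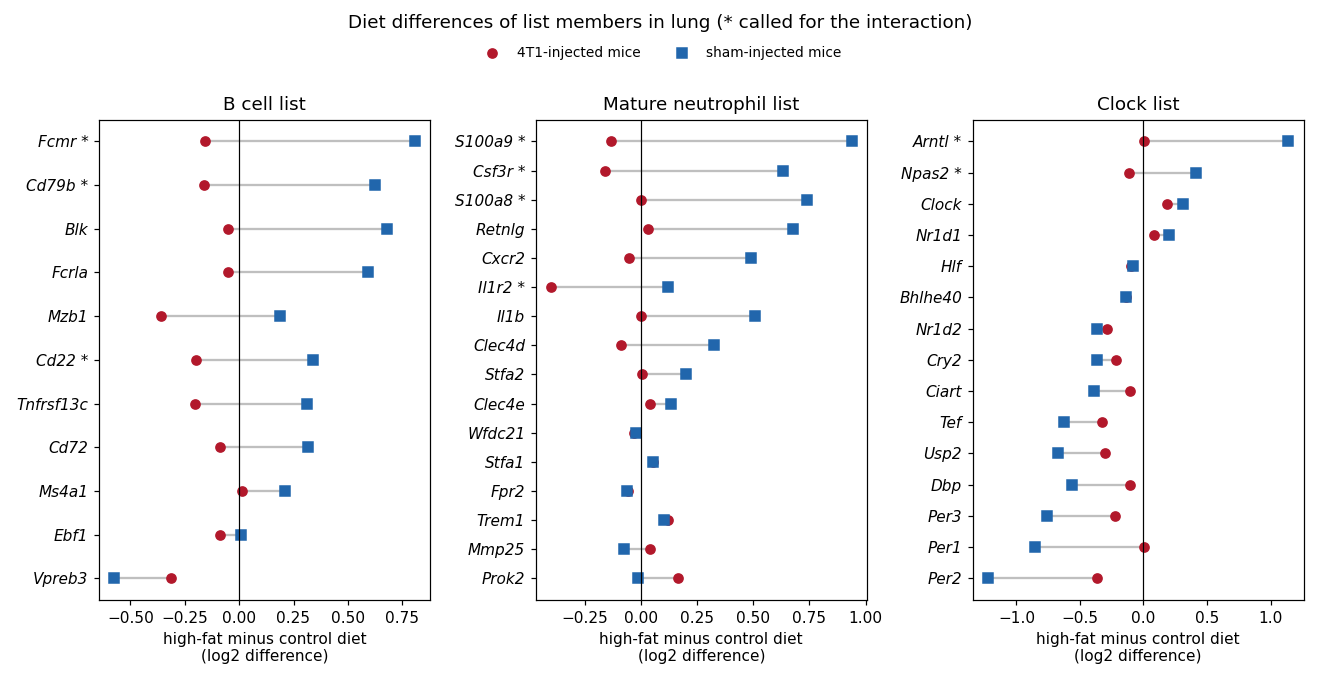
High-fat minus control-diet difference (log2) in 4T1-injected lungs (circles) and in sham-injected lungs (squares) of every measured member of the B cell, mature neutrophil and clock lists, ordered by the interaction, with an asterisk at genes called for it. The circle lies left of the square for every B cell gene except Vpreb3, and the clock squares run from -1.23 for Per2 to 1.14 for Arntl.

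In neutrophil genes the injection was far larger than the diet. All 16 measured members of the mature neutrophil list rose with 4T1 injection on each diet, by a median of 3.01 on the high-fat diet, where 22.9% of all genes rose, and 3.85 on the control diet, where 20.9% did. For the interaction 4 of the 16 were called, all lower (0.196% of all genes were): S100a9, S100a8, Csf3r and Il1r2. The list median was -0.30 and 5 members lay above 0. In sham-injected lungs 6 rose on the high-fat diet, where 1.51% of all genes did: S100a9 by 0.94, S100a8 by 0.74, Retnlg by 0.68, Csf3r by 0.63, Il1b by 0.51 and Cxcr2 by 0.49. In 4T1-injected lungs none was called for diet and the list median was 0.00. The list averaged 12.93 to 13.08 on the 4T1 high-fat arrays, 12.98 to 13.11 on the 4T1 control-diet arrays, 9.27 to 9.34 on the sham high-fat arrays and 8.94 to 9.09 on the sham control-diet arrays.

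S100a9 read 15.47, 15.41 and 15.33 in 4T1 high-fat lungs, against 15.55, 15.51 and 15.54 in 4T1 control-diet lungs. It read 12.57, 12.59 and 12.55 in sham high-fat lungs, against 11.70, 11.72 and 11.47 in sham control-diet lungs. The interaction was -1.07 ± 0.09 (adjusted p = 0.000128) and was called without any 1 array, with a highest adjusted p of 0.00103. The 4T1 means of S100a9 lay 0.69 (high-fat) and 0.56 (control diet) below the highest lung value. Whether the upper end of the signal range took part was not tested. S100a8, the partner of S100a9 in calprotectin, read 12.59, 12.81 and 12.57 in sham high-fat lungs, against 12.06, 11.84 and 11.86 in sham control-diet lungs. On the 4T1 arrays it lay between 16.02 and 16.05, where the highest value of any probe in lung was 16.09. Its interaction of -0.74 ± 0.10 (adjusted p = 0.00858) sets a difference of 0.74 in sham-injected lungs against one measured at the top of the signal range, and whether a ceiling of the signal took part was not tested.

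Csf3r, the receptor for granulocyte colony-stimulating factor, had an interaction of -0.79 ± 0.14 (adjusted p = 0.0399), called in 4 of the 12 fits that leave out 1 array. Its other probes gave -0.52, 0.05 and 0.10, none of them called. Across the list, 2 members were called when any 1 of the 4 arrays named for the B cell list was left out, 7 without 4T1 control-diet array 2, and 1 with neqc. Il1r2, the decoy receptor for interleukin-1, had a different arrangement. It read 10.54, 10.62 and 10.44 in 4T1 high-fat lungs, against 10.97, 10.95 and 10.88 in 4T1 control-diet lungs, and 7.96, 7.89 and 7.91 in sham high-fat lungs, against 7.76, 7.88 and 7.76 in sham control-diet lungs. Its interaction of -0.52 ± 0.08 (adjusted p = 0.0203) lay mostly in the 4T1-injected lungs in the deposited values, with a diet difference of -0.40 there (95% interval -0.52 to -0.28, adjusted p = 0.0684) and 0.12 in sham-injected lungs (adjusted p = 0.354). The sham values of Il1r2 are dim, where the median over all probes is 7.53, so the sham difference is uncertain. With neqc its interaction was -0.74 and was not called. Lilra6, a leukocyte immunoglobulin-like receptor with close relatives that can share probe signal, had an interaction of -0.42 (adjusted p = 0.0296). Genes of the granules made early and late in neutrophil maturation were not called: the 7 of the primary granules had a median of 0.08 (-0.03 with neqc) and the 10 of the secondary granules one of -0.08.

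Spon2, an extracellular matrix protein known for binding microbes and integrins, had the interaction furthest from 0 among the called genes. It read 11.92, 11.61 and 11.97 in 4T1 high-fat lungs, against 11.36, 11.43 and 11.46 in 4T1 control-diet lungs. It read 12.15, 12.19 and 12.04 in sham high-fat lungs, against 10.37, 10.51 and 10.36 in sham control-diet lungs. The high-fat arrays stood above the control-diet arrays under both injections, and the gap was wider in sham-injected lungs. The diet difference was 0.41 in 4T1-injected lungs (95% interval 0.23 to 0.59, adjusted p = 0.170) and 1.71 in sham-injected lungs (adjusted p = 2.03e-07), and the interaction was -1.30 ± 0.12 (adjusted p = 0.000246). It was called without any 1 array, with a highest adjusted p of 0.00188.

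Pigr, the receptor that carries IgA and IgM across epithelium, had diet differences of opposite sign. It averaged 8.67 ± 0.07 in 4T1 high-fat lungs and 8.97 ± 0.03 in 4T1 control-diet lungs (SD, n = 3 each). In sham-injected lungs it averaged 9.66 ± 0.05 on the high-fat diet and 9.34 ± 0.09 on the control diet. No arrays of the 2 diets overlapped under either injection, which held for 14.1% of all genes in 4T1-injected and 25.6% in sham-injected lungs. The interaction was -0.62 ± 0.08 (adjusted p = 0.00858), called without any 1 array, from a difference of -0.30 in 4T1-injected lungs (95% interval -0.42 to -0.18, adjusted p = 0.170) and 0.31 in sham-injected lungs (adjusted p = 0.0101).

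The remaining called genes with a lower interaction were, apart from Adm, on none of the gene lists. Adm, the vasodilator peptide adrenomedullin and 1 of 19 measured hypoxia-response genes, had an interaction of -0.50 ± 0.09 (adjusted p = 0.0345). It was the only one of that list called, where 0.196% of all genes were called lower. The list median was 0.04 and 10 of the 19 members lay above 0. Adm read 7.98, 7.82 and 7.92 in 4T1 high-fat lungs, against 7.85, 7.92 and 7.72 in 4T1 control-diet lungs. In sham-injected lungs it read 8.47, 8.56 and 8.54 on the high-fat diet, against 7.95, 7.92 and 7.98 on the control diet. Evl, an actin regulator of the Ena/VASP family, and Sash3, a signalling adaptor of lymphocytes, had interactions of -0.55 and -0.50. Ywhaq, a 14-3-3 protein, had -0.55, and B3gnt5, a glycosyltransferase of glycosphingolipids, had -0.48. M6pr, the receptor that sends enzymes to lysosomes, and Rab9, a small GTPase that recycles such receptors, each had -0.42. However, a second probe of M6pr gave 0.05. A dimmer Rab9 probe, above background on 9 of the 12 arrays, gave 0.02. Clmp, an adhesion protein of cell junctions, had -0.47 and 6330509M05Rik had -0.43. The calls of B3gnt5 and M6pr were each kept in 1 of the 12 fits that leave out 1 array, and those of Sash3 and Lilra6 in 2.

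The higher calls were fewer and were read mostly by probes other than the gene's brightest. Dclk3, a doublecortin-like kinase, read 8.62, 8.87 and 8.68 in 4T1 high-fat lungs, against 8.47, 8.62 and 8.47 in 4T1 control-diet lungs. It read 8.63, 8.57 and 8.49 in sham high-fat lungs, against 9.06, 8.99 and 9.22 in sham control-diet lungs. The sham control-diet arrays were the ones set apart, and the interaction was 0.73 ± 0.11 (adjusted p = 0.0152). Cyp2a5 and Tsc22d3 were named after their values were seen. Cyp2a5, a cytochrome P450 that oxidises coumarin and nicotine and whose close paralog Cyp2a4 can share its signal, had 5 measured probes with interactions of 0.33 to 1.11, of which 2 were called. The probe with the interaction of 1.11 ± 0.16 (adjusted p = 0.0108) read 10.33, 10.57 and 10.11 in 4T1 high-fat lungs, against 10.71, 10.80 and 10.67 in 4T1 control-diet lungs. It read 10.25, 10.59 and 10.46 in sham high-fat lungs, against 11.91, 11.80 and 12.08 in sham control-diet lungs. The brightest Cyp2a5 probe had 0.76 and did not pass (adjusted p = 0.0653). Tsc22d3, the glucocorticoid-induced leucine zipper GILZ, had 0.94 ± 0.14 on a dimmer probe (adjusted p = 0.0152) and 0.25 on its brightest one (adjusted p = 0.452).

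Of the 46 called probes, 38 had 1 gene symbol and stood for 35 genes, and 8 had none. Among them 11 belonged to genes whose brightest probe was not called, and these were read separately. H2-DMb2, which loads peptides on MHC class II, had -0.71 on the called probe (adjusted p = 0.00858) and -0.07 on its brightest one. Jak1, a cytokine-receptor kinase, had -0.61 (adjusted p = 0.0108) and likewise -0.07. Fcrla, a B cell protein related to Fc receptors, had -0.78 on both called probes (adjusted p = 0.0108 and 0.0150) and -0.64 on the brightest (adjusted p = 0.0557), so its probes ran together. Which of the disagreeing probes reads the transcript in question was not tested.

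Several lists moved with diet in sham-injected lungs and had no call for the interaction with each gene read by its brightest probe. Of 17 measured glucocorticoid-response genes, 9 fell on the high-fat diet in sham-injected lungs, among them Per1, Map3k6, Ddit4 and Fkbp5, with a median of -0.40 and against 1.17% of all genes, while in 4T1-injected lungs the median was -0.07 and none was called. The interaction median of that list was 0.19. Of 30 measured genes of xenobiotic metabolism, 7 fell in sham-injected lungs, against the same 1.17%, with a median of -0.14, and the interaction median was 0.11. Cyp2a5, whose dimmer probes were called as given above, is a member of that list. The 35 mitotic and DNA replication genes had the opposite placement. Their interaction median was 0.34, with 33 of 35 above 0 and none called, and their median diet difference was 0.28 in 4T1-injected lungs and -0.04 in sham-injected lungs. Top2a, the topoisomerase of dividing cells, had an interaction of 0.87 (adjusted p = 0.228). The list averaged 9.43, 9.43 and 9.92 on the 4T1 high-fat arrays, against 9.35, 9.30 and 9.25 on the 4T1 control-diet arrays, so 4T1 high-fat array 3 was the highest.

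The same contrast in liver was called in 301 of 19488 probes, 1.54%. Of the called lung genes, 22 had a measured liver probe, and 3 were called in liver as well: Spon2, Arntl and Npas2, against 1.78% of the genes measured in both tissues. All 3 were lower in both tissues. Over the 22 genes 11 had the same sign in liver and 11 the opposite. Spon2 in liver read 12.92, 12.58 and 12.71 on the 4T1 high-fat arrays, against 11.91, 12.36 and 12.27 on the 4T1 control-diet arrays. It read 12.69, 12.52 and 12.73 on the sham high-fat arrays, against 10.49, 10.48 and 10.50 on the sham control-diet arrays. Its liver interaction was -1.60 ± 0.15 (adjusted p = 3.48e-05). The lung minus liver difference of the interactions was 0.05 (adjusted p = 0.938), fitted on the arrays of both tissues normalized together. That value is therefore not the subtraction of the interactions from the separate fits.

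Arntl in liver had an interaction of -0.84 ± 0.14 (adjusted p = 0.00477). On the sham control-diet liver arrays it read 7.80, 7.41 and 7.60 and was above background on only 1, so this interaction rests partly on dim values. The lung minus liver difference was 0.17 (adjusted p = 0.816), fitted on the arrays of both tissues normalized together. The separately normalized fits, at -1.14 in lung and -0.84 in liver, differ in the opposite direction. Unlike in lung, Arntl was called for diet in 4T1-injected livers. It read 8.82, 8.71 and 8.78 there on the high-fat diet against 8.06, 8.42 and 8.34 on the control diet, a difference of 0.50 (adjusted p = 0.0180). That difference between the tissues was not tested by itself. Npas2 in liver had -0.44 ± 0.09 (adjusted p = 0.0243), and it was not well above background on any sham control-diet liver array. Of the 15 clock genes measured in liver, 5 were called higher for the interaction (Usp2, Ciart, Per1, Per3 and Per2), where 0.779% of the genes measured in both tissues were, and 4 lower, where 1% were (Arntl, Nr1d1, Clock and Npas2). The B cell and mature neutrophil lists had no call in liver, with 7 and 16 measured members and medians of -0.02 and 0.12. B cell genes called in lung were dim in liver. Fcmr read 7.83 to 8.11 there, and Cd79b was above background on 1 sham high-fat and 0 sham control-diet liver arrays. The absence of B cell calls in liver therefore says little about a difference between the tissues.

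The lung minus liver difference of the interactions, fitted on all 24 arrays normalized together, was called in 136 of 18326 probes, 0.742%, and in 77 of 10263 genes, 0.75%. Among the called lung genes it was called for 2. Fcmr differed by -0.98 (adjusted p = 0.0334) and Adm by -0.66 (adjusted p = 0.0483), with Adm mostly at background in liver. Fcmr was dim in liver as well, at 7.83 to 8.11, so its tissue difference rests partly on dim values. The 5 genes with the largest such differences had liver interactions further from 0 than their lung ones. Bcl6, a transcriptional repressor, differed by 1.82 ± 0.23 (adjusted p = 0.000453), with a liver interaction of -1.97. Cish, an inhibitor of cytokine signalling, differed by -1.43 (adjusted p = 0.000453), and Acot1, an acyl-CoA thioesterase, by -1.40 (adjusted p = 0.0398). Usp2, a deubiquitinase under clock control, differed by -1.35 (adjusted p = 0.0217), and Nrg4, a growth factor of the EGF family, by -1.29 (adjusted p = 0.00956). Their liver interactions were 1.59 for Cish, 1.19 for Acot1, 1.86 for Usp2 and 1.32 for Nrg4, and none of the 5 was called in lung.

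**Figure D4:**
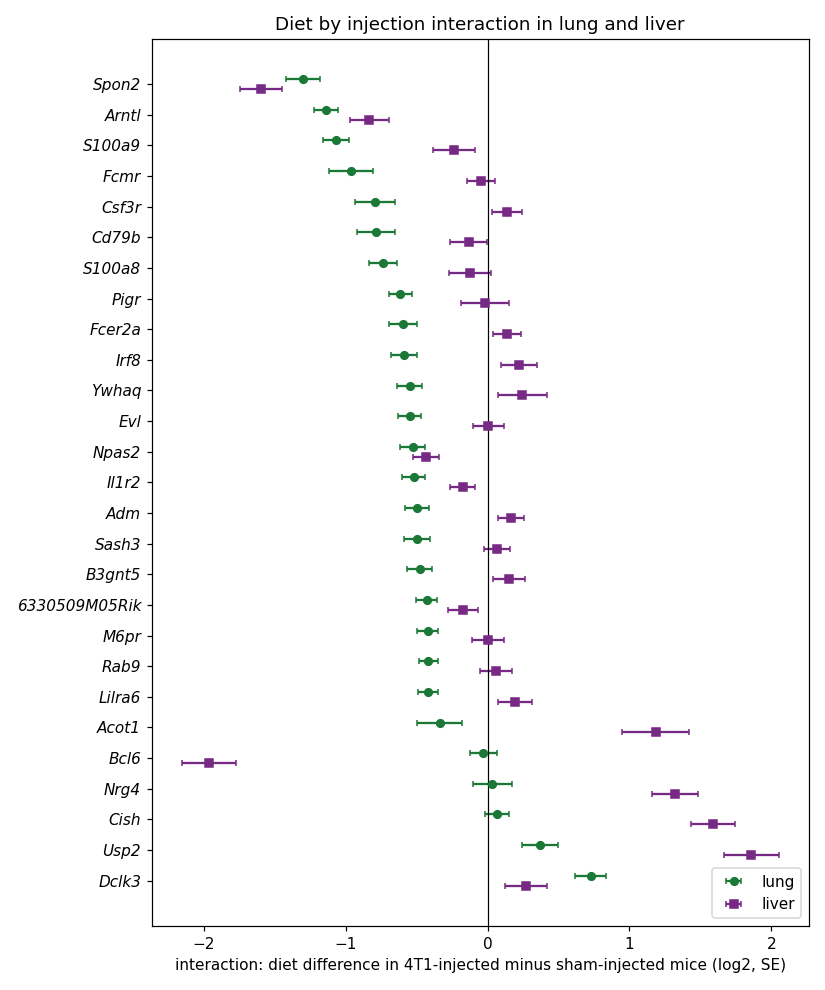
Interaction (log2, with its standard error) in lung and in liver for called lung genes measured in both tissues and for the 5 genes with the largest lung minus liver difference. Spon2, Arntl and Npas2 lie below 0 in both tissues, and Bcl6 is at -1.97 in liver.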

How the data were processed

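RNA of 12 lung and 12 liver samples was hybridised to Illumina mouse bead arrays. The deposited log2 values are normalized signals. GenomeStudio 2009.2 is named per the submitters' processing notes, with no further step stated there. The deposited intensity tables give a mean probe intensity and a detection p-value per array. Quantile normalization of the deposited lung intensities without background correction returned 100% of 543372 deposited log2 values within 0.01, so the values were used as deposited. The p-values of the deposited tables were used to keep probes with a detection p under 0.05 on at least 3 of 12 lung arrays.

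The 4 groups were fitted in limma 3.58.1 (R 4.3.3) with lmFit and eBayes, over the 12 lung arrays without covariates, and p-values were adjusted by Benjamini-Hochberg over all 24399 probes. A probe was called at an adjusted p under 0.05. A gene was read by its kept probe with the highest lung mean. Of 45281 probes, 34885 had 1 symbol, 18 several and 10378 none. Symbols were updated by Entrez ID for 34807. The lung minus liver difference was fitted on the raw intensities of 24 arrays quantile-normalized together. Genes named were the 15 highest and 15 lowest called, up to 3 called members of a list (otherwise up to 2 with the smallest p), those called in both tissues or for opposite diet differences, and the 5 with the largest tissue difference. The members and lists were chosen with earlier results of these data known. Alternatives were background correction (neqc), scaling, filters, covariates, a replicate block, and leaving out each array. The fit was tested on simulated data. No sample was dropped or imputed, and the number of arrays limits the precision. Replicate numbers were not taken to pair the samples.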

Additional observations from a re-analysis of the deposited data

Results flagged for a closer look

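The 26 genes called for the interaction are those whose diet difference differed between the injections by a test of the difference itself. Their interactions in log2 were -1.30 for Spon2, -1.14 for Arntl, -1.07 for S100a9, -0.97 for Fcmr, -0.79 for Csf3r, -0.79 for Cd79b and -0.74 for S100a8. They were -0.62 for Pigr, -0.60 for Ccr6, -0.60 for Fcer2a, -0.59 for Irf8, -0.55 for Ywhaq, -0.55 for Evl, -0.54 for Cd22, -0.53 for Siglecg and -0.53 for Npas2. They were -0.52 for Il1r2, -0.50 for Adm, -0.50 for Sash3, -0.48 for B3gnt5, -0.47 for Clmp, -0.43 for 6330509M05Rik, -0.42 for M6pr, -0.42 for Rab9, -0.42 for Lilra6 and 0.73 for Dclk3. Between the tissues, the interaction differed by 1.82 for Bcl6, -1.43 for Cish, -1.40 for Acot1, -1.35 for Usp2 and -1.29 for Nrg4 (lung minus liver).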

How the results depend on the processing

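The 38 named probes were refitted under 22 settings (21 for 13 of them, which a setting left out), 823 results in all: none changed direction and 567 were still called. The 46 interaction probes became 10 with neqc background correction, 101 with a trended robust prior, 93 with the liver-secreted gene mean as a covariate, 23 with the cardiac mean, and 15 to 105 with 1 array left out (15 without sham control-diet array 3, 105 without 4T1 control-diet array 2). Median scaling alone gave 37 probes, 35.1% of them higher, against 17.4% in the values as deposited. The replicate numbers were also used as a block, within each tissue or, for the tissue difference, within each injection and diet group. The numbers share no stated source: same-numbered arrays correlated at -0.176 to 0.193 across lung groups, -0.156 to 0.0540 across liver groups and -0.0169 to 0.127 between lung and liver, against -0.106 to 0.0453 for different numbers there. The block gave 36 for the interaction, 2 for diet in 4T1-injected lungs, 424 in sham-injected lungs, 251 in liver and 71 for the tissue difference. The diet count of 0 in 4T1-injected lungs was 2 with neqc, 3 without a filter, 2 with 1 probe a gene, 3 with the trended prior, 8 with the liver covariate and 0 to 6 with 1 array left out. The 559 of sham-injected lungs became 234 with neqc, 369 with 1 probe a gene, 1222 with array weights, 333 with the liver covariate and 223 to 650 with 1 array left out. The 301 of liver became 111 with neqc, 135 with median scaling (75.6% higher against 49.2%) and 146 to 417 with 1 array left out. The 136 of the tissue difference became 73 with neqc, 40 with median scaling (25% higher against 40.4%), 60 without a filter and 58 to 368 with 1 array left out. The cause of these shifts was not tested. Called B cell members ran from 0 to 4, mature neutrophil members from 2 to 7 and clock members from 1 to 3 with 1 array left out; with neqc they were 0 for B cell and 1 for neutrophil genes. With 3 arrays a group, changes in probes near background and near the top of the signal range are the least certain.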
